A study of Mus musculus with 8 samples.

Results

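Carriers of organic cations, organic anions and bile salts make up 51 of the 34945 named genes in the deposited table. They were taken by symbol, as every gene whose name begins with Slc22a, Slco, Slc47a or Slc10a followed by a number. Poly-A RNA was sequenced from AML12, an established mouse hepatocyte line derived from the liver of a mouse with a human TGF-alpha transgene. All 8 cultures were labelled as hepatocytes and grown in the same serum-containing medium, and each was transfected with 40 nM siRNA by a lipid reagent in 24-well plates for 48 hours. The control group (Scr) of 4 cultures, with the genotype label WT, received a scrambled siRNA. The siCasp8 group of 4 cultures, with the genotype label Casp8 knockdown, received siRNAs against Casp8, which encodes a protease that starts apoptosis downstream of death receptors. The series calls the 4 cultures of a group biological replicates and does not say whether they were prepared on separate days. All come from 1 cell line, so the p-values below measure the spread between cultures of that line.

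Solute carriers of these families move drugs, hormones, vitamins and metabolites across cell membranes without using ATP directly. In liver, the sodium-dependent carrier encoded by Slc10a1 and the organic anion transporting polypeptides encoded by Slco genes take bile salts and hormones from blood into hepatocytes. Members of the SLC22 family carry organic cations, carnitine or organic anions, and the MATE exporters encoded by Slc47a genes pass cations out into bile or urine. Several members are better known from kidney tubule, intestine or bile duct epithelium than from hepatocytes.

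Values are gene-level estimates that the authors normalized between libraries, in a unit that is neither reads nor a share of a fixed total. The value worth 1 read, read from the spacing of low values, lay between 0.773 and 1.47 among the libraries, which put estimated depth at 30.7 to 51.8 M reads in Scr and 50.5 to 57.1 M reads in siCasp8. Depth therefore differed between the groups, with overlap only at Scr replicate 4 and siCasp8 replicate 1, and fits with depth as a covariate are given where they end a call. Casp8 was 3936, 3995, 4134 and 3825 in Scr replicates 1 to 4 and 1374, 1431, 1627 and 1490 in siCasp8 replicates 1 to 4, so all 4 libraries labelled siCasp8 lay below every Scr library. Its log2 fold change, siCasp8 minus Scr, was -1.43 (SE 0.0525, limma adjusted p = 5.94e-09).

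Markers of cell types were read beside the carriers. Over all 14154 genes with a mean of at least 10, 19.4% were called higher in siCasp8 and 20.8% lower (limma adjusted p under 0.05). With the depth covariate 1209 were higher and 1396 lower. Of 14 hepatocyte markers in the table, 8 had a mean of at least 10, with 5 higher in siCasp8 and 1 lower. The albumin gene Alb went from 86.4 ± 10.7 to 3626 ± 248.9. The summed value went from a range of 56401 to 60601 in Scr to 74027 to 77656 in siCasp8, while Ahsg was listed at 0 in every library and Apoa2, Cps1, Cyp2e1, Asgr1 and Asgr2 had means under 10. Of 16 kidney tubule markers, 9 were tested, with 6 lower and none higher, and the sum went from 88053 to 91339 in Scr to 74217 to 79311 in siCasp8, with Umod, Aqp2, Kap and Emx1 at 0. Cholangiocyte markers summed to 114801 to 123523 in Scr and 129457 to 136766 in siCasp8 (12 in the table, 8 tested, 2 higher and 4 lower). After rescaling to a common upper quartile, none of these 4 was called lower. Macrophage markers summed to 2831 to 3036 and 2199 to 2361 (10 in the table, 5 tested, 2 lower, with Adgre1, Clec4f, Marco and Vsig4 at 0). Fibroblast markers summed to 133 to 194 and 118 to 206 (12 in the table, 3 tested, 2 higher and 1 lower, Hand2 at 0), and endothelial markers to 220 to 561 and 211 to 336 (10 in the table, 2 tested, none called, with Cdh5, Lyve1 and Erg at 0). With the depth covariate the marker calls were 5 higher and 1 lower for hepatocyte, 1 and 0 for cholangiocyte, 0 and 4 for kidney tubule, 0 and 2 for macrophage and 0 and 0 for fibroblast genes. The part of these shifts in the carrier results was not tested, and in bulk RNA fewer cells of a type and less RNA per cell cannot be told apart.

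After Casp8 silencing the carriers changed in both directions, with the largest differences in Slc22a30 and Slc22a18, which rose, and Slco4a1, which fell. Of the 51 members, 17 averaged 10 or more across the 8 libraries and were tested. In limma's moderated test on log2(value + 1), with Benjamini-Hochberg adjustment over all 14154 tested genes and a call at adjusted p under 0.05, 4 carriers rose, 6 fell and 7 were not called. That is 10 of 17 called, against 40.2% of all tested genes called (19.4% higher and 20.8% lower). The groups did not overlap for 8 of the 17 carriers, 4 in each direction, against 37.5% of all tested genes. The 3 named genes were the carriers called with a change of at least 1 on the log2 scale, as were 2.91% of all tested genes. The median log2 fold change of the tested carriers was -0.06, against 0.00 over all tested genes. Slc22a30 passed the filter only through its siCasp8 values, so the call of that gene is not independent of the filter, and without it 3 carriers were higher and 6 lower.

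Rescaling all libraries to a common upper quartile moved the median of all genes from 0.00 to 0.10 and turned the carrier calls to 6 higher and 3 lower. It turned all calls from 2739 higher and 2950 lower to 4471 higher and 1665 lower. With estimated depth as a covariate the carrier calls were 4 higher and 3 lower. That fit called 1209 higher and 1396 lower over all genes, so calls were fewer there as well. The calls of Slc22a18, Slc22a5, Slco1a5, Slco3a1 and Slco4a1 were kept under each of the 20 alternative settings, and that of Slc22a30 under each of the 19 in which it was tested. The plot of log2 fold changes for the 17 tested carriers shows these 6 genes among the wider group. With a filter at a mean of 50 Slc22a30 was not tested. Most of the 19 settings kept the filter at a mean of 10, which this gene passed only through its siCasp8 values.

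**Figure D1:**
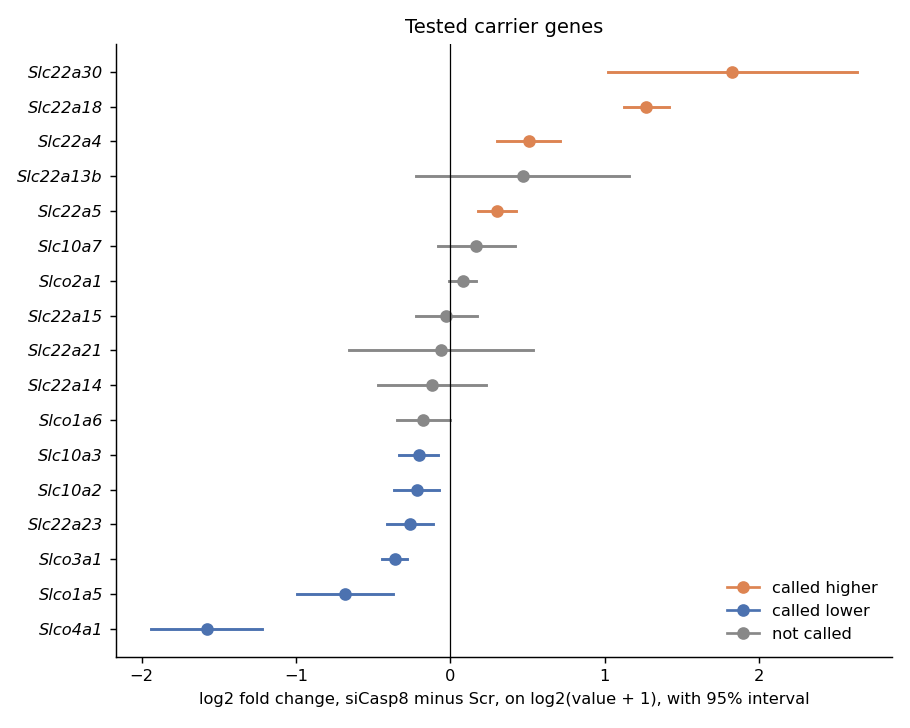
Log2 fold change of the 17 tested carriers, siCasp8 minus Scr on the log2(value + 1) scale (x axis), one gene per line (y axis), with 95% intervals from limma; colour marks the call. Slc22a30 (1.83) and Slc22a18 (1.27) stand at the top and Slco4a1 (-1.58) at the bottom, while 7 genes in grey were not called.

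The promoters of the 4 called members with the largest absolute log2 fold changes are shown because these genes differed most between the groups. Each window runs from 250 bases before to 50 after the RefSeq start site (GRCm38.p6), 5′ to 3′ on the gene's strand, with each CpG dinucleotide in capitals. The windows lie at chr7:143473539-143473838 on the plus strand, chr19:8405056-8405355 on the minus strand, chr2:180455995-180456294 on the plus strand and chr6:142322932-142323231 on the minus strand.
Slc22a18 promoter: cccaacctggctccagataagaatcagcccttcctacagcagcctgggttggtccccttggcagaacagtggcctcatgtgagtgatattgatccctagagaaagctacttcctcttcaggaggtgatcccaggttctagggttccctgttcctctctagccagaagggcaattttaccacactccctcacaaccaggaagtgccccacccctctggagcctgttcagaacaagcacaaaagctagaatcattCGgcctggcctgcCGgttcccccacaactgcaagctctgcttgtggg
Slc22a30 promoter: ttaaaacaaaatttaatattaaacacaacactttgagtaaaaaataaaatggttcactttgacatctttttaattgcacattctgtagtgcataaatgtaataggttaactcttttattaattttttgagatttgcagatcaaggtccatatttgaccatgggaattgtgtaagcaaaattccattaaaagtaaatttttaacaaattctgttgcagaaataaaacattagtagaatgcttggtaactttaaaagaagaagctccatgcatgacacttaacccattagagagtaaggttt
Slco4a1 promoter: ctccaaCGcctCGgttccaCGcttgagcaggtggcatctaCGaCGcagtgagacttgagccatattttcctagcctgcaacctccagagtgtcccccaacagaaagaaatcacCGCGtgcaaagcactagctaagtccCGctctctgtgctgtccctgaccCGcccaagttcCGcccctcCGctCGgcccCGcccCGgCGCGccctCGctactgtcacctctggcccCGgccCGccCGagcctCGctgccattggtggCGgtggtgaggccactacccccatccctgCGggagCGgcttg
Slco1a5 promoter: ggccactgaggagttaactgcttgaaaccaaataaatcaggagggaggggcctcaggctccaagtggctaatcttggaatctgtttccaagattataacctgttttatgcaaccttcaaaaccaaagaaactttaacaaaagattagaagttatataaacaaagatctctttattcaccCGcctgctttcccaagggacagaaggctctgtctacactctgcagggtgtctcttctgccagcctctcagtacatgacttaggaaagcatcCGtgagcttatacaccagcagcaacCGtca
The Slco4a1 window held 24 CpG dinucleotides and 65.3% G and C, the Slc22a18 window 2 and 54.7%, the Slco1a5 window 3 and 44.3%, and the Slc22a30 window 0 and 27.7%. Over 32851 RefSeq promoters of 300 bases the medians were 7 CpG dinucleotides and 52.7%. The windows were searched on both strands for the HNF1 half-site GTTAAT, the HNF4 core CAAAGTCC and the CHR element of cell cycle genes (TTTGAA). The E-box CACGTG and the TATA box TATAAA were searched in the same way. None of these words occurred in the Slc22a18, Slc22a30 or Slco4a1 window. The Slco1a5 window held the CHR word on the reverse strand 136 bases and the TATA word 97 bases before the start site. These words occur in 17.9% and 13.6% of all 300-base promoters, and GTTAAT, CAAAGTCC and CACGTG in 7.10%, 1.42% and 7.15%. RefSeq promoters were matched by symbol for 41 of the 51 members.

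The bile salt family (Slc10a) held 8 members, of which 3 were tested, with 2 lower, none higher and 1 not called. Slc10a2 encodes the apical sodium-dependent bile salt carrier of ileum, bile duct and kidney tubule. It was 973, 1064, 1174 and 1108 in Scr replicates 1 to 4 and 917, 960, 980 and 854 in siCasp8 replicates 1 to 4. The groups overlapped at Scr replicate 1, which lay below siCasp8 replicate 3. Slc10a2 differed by -0.22 on the log2 scale (SE 0.0669, limma adjusted p = 0.021), with an exact two-sided permutation p of 0.0571, where 0.0286 is the smallest that 4 against 4 libraries can give. Leaving out any of 4 libraries ended the call, namely Scr replicate 3 (adjusted p 0.054) or 4 (0.0542) and siCasp8 replicate 1 (0.0505) or 4 (0.066). It also ended after upper quartile rescaling (0.223) and with the depth covariate (0.0895), and over all 20 alternatives the adjusted p ran from 0.00698 to 0.223.

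Slc10a3, a family member with no settled substrate, was 623, 580, 639 and 595 in Scr and 530, 528, 534 and 519 in siCasp8. Every siCasp8 library lay below every Scr library. Slc10a3 differed by -0.21 on the log2 scale (SE 0.0586, limma adjusted p = 0.0141), a call lost after upper quartile rescaling (0.203) and with the depth covariate (0.211). In the GENCODE annotation Slc10a3 overlaps Ubl4a on the same strand, and 10.95% of the 31-base words of its transcripts also occur in those of Ubl4a, so reads of the pair can be split only in part. Slc10a7, a family member linked to skeletal growth and not known to carry bile salts, was 1123, 1350, 1148 and 862 in Scr and 1194, 1098, 1365 and 1337 in siCasp8. The groups overlapped, with a log2 fold change of 0.17 (95% interval -0.08 to 0.42, limma adjusted p = 0.272). It was called higher with the depth covariate (log2 fold change 0.55, adjusted p = 0.0141) and after upper quartile rescaling (0.27, adjusted p = 0.0463).

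Slc10a1, the gene of the main bile salt uptake carrier of hepatocytes, lay between 0 and 2.95 in Scr and between 0.782 and 3.12 in siCasp8, that is at a few reads in any library. Slc10a5 was as low, with a highest value of 3.56. The other untested family members, the orphan carrier gene Slc10a4, its pseudogene Slc10a4-ps and the steroid sulphate carrier gene Slc10a6, had means under 1 or were listed at 0.

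Among 8 carriers of organic cations and carnitine, 4 were tested, 2 rose and 2 were not called. Slc22a5 encodes the sodium-dependent carnitine carrier OCTN2, which brings in the cofactor needed to move fatty acids into mitochondria. It was 844, 878, 872 and 833 in Scr and 1071, 1151, 1002 and 1014 in siCasp8, with every siCasp8 library above every Scr library. Slc22a5 was higher by 0.30 on the log2 scale (SE 0.0565, limma adjusted p = 0.000988).

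Slc22a4 encodes OCTN1, a carrier of the antioxidant ergothioneine. Its values were 143, 147, 148 and 146 in Scr and 211, 196, 199 and 230 in siCasp8. The groups did not overlap, and the Scr libraries lay close together. Slc22a4 was higher by 0.51 on the log2 scale (SE 0.0938, limma adjusted p = 0.000925). The depth covariate gave 0.49 with an adjusted p of 0.0538, so the gene was not called there.

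Slc22a21, which encodes a mouse carnitine carrier related to both, was 32.0, 34.2, 15.9 and 37.1 in Scr and 24.1, 27.1, 26.9 and 31.2 in siCasp8. The groups overlapped widely (log2 fold change -0.06, 95% interval -0.65 to 0.53, limma adjusted p = 0.885), and the interval holds the values of both Slc22a4 and Slc22a5. The sign of this value changed after upper quartile rescaling and without Scr replicate 2 or 4. These 3 genes lie side by side on the minus strand of chromosome 11 (GRCm38), within 164 kb, at 53864542 to 53891660 (Slc22a5), 53949965 to 53980332 (Slc22a21) and 53983123 to 54028090 (Slc22a4). Of the 31-base words of Slc22a5 transcripts 35.8% also occur in Slc22a21, and 29.9% of those of Slc22a21 occur in Slc22a5, so the split of reads between this pair is uncertain. For Slc22a4 the share of words found in any other gene was 6.94%.

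Slc22a15, a carrier gene of zwitterions, was 207, 203, 194 and 185 in Scr and 201, 178, 197 and 199 in siCasp8. The groups overlapped, with a log2 fold change of -0.03 (95% interval -0.22 to 0.17, limma adjusted p = 0.853), whose sign changed after upper quartile rescaling, with the depth covariate and without siCasp8 replicate 2. Slc22a2, the kidney cation carrier gene, was listed at 0 in every library, and Slc22a3 and Slc22a16 had means under 1. Members under a mean of 1 are named for their known roles, after their values had been seen.

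Of 14 genes grouped by symbol as organic anion carriers of the SLC22 family, 2 were tested, with 1 higher and 1 not called. Slc22a30, which belongs to a rodent cluster of organic anion carrier genes, was 2.71, 8.32, 5.00 and 4.25 in Scr and 26.2, 15.3, 19.0 and 18.5 in siCasp8. In estimated reads this is 1.88 to 5.65 in Scr and 19.5 to 30.0 in siCasp8. The groups did not overlap, and Slc22a30 was higher by 1.83 on the log2 scale (SE 0.371, limma adjusted p = 0.00182), or 0.98 with a pseudocount of 10. With a filter at a mean of 50 the gene was not tested. Of the 31-base words of its transcripts 42.9% occur in other genes, most of them in Slc22a28 (39.5%), which was listed at 0 in 7 of 8 libraries.

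Slc22a30 (chromosome 19, 8335371 to 8405111, minus strand) lies in a run of 8 SLC22 genes that spans 955 kb. It was the only one of these 8 with a mean of at least 10. Slc22a8, the gene of the kidney organic anion carrier OAT3, lay just under the limit with a mean of 7.32, from 4.35 to 8.84 in Scr and from 3.42 to 13.2 in siCasp8, against a mean of 12.4 for Slc22a30 just above it. Slc22a19 lay between 0.870 and 7.13 in any library, and the other 5, Slc22a6 (OAT1), Slc22a26, Slc22a27, Slc22a28 and Slc22a29, were at or near 0.

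Slc22a13b was 10.1, 23.6, 23.6 and 31.3 in Scr and 33.5, 31.3, 26.5 and 24.95 in siCasp8. Its groups overlapped, with a log2 fold change of 0.47 (95% interval -0.22 to 1.16, limma adjusted p = 0.268), and the sign changed with the depth covariate. Scr replicate 1, among the shallowest libraries, was the lowest of the 8, and without it the log2 fold change was 0.15. GENCODE holds no Slc22a13b but does hold Slc22a13b-ps, a symbol with the ending of a pseudogene, on the strand of Slc22a14. Whether Slc22a13b stands for that pseudogene, and so encodes no carrier, was not tested. Slc22a13, which encodes a carrier of nicotinate and urate, ranged from 1.47 to 10.1 in Scr and from 3.11 to 10.2 in siCasp8. Slc22a7 (OAT2 of hepatocytes), Slc22a20 and Slc22a22 were listed at 0 throughout, and Slc22a12, the kidney urate carrier gene URAT1, had a mean under 1.

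Divergent members of the SLC22 family gave 1 rise, 1 fall and 1 gene not called among 3 tested of 4. Slc22a18, an imprinted gene with a debated substrate, was 502, 550, 489 and 516 in Scr and 1333, 1306, 1125 and 1201 in siCasp8. The lowest siCasp8 library was well above the highest Scr library. The siCasp8 mean was 241% of the Scr mean (514 ± 26.2 against 1241 ± 95.9 as mean ± SD, n = 4), with a log2 fold change of 1.27 (SE 0.0669, limma adjusted p = 5.30e-08). Over the 20 alternatives the fold change stayed between 1.23 and 1.37. None of the 31-base words of its transcripts occur in another annotated gene.

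Slc22a18 occupies bases 143473736 to 143499334 of chromosome 7 (plus strand), between the imprinted growth regulators Cdkn1c and Phlda2, which are 12.7 kb and 2.21 kb away. Neither neighbour was called. Cdkn1c was 24.7 ± 8.02 in Scr and 32.4 ± 5.54 in siCasp8 (log2 fold change 0.44, 95% interval -0.19 to 1.06, limma adjusted p = 0.254). Phlda2 was 13.1 ± 4.48 and 11.4 ± 4.24 (-0.20, interval -0.97 to 0.58, limma adjusted p = 0.705). For all 10 called carriers, the nearest tested coding gene on each side that was not itself a carrier was read in the same way. In 6 of these 20 pairs, formed by 18 distinct neighbours, the neighbour was called in the carrier's direction, in 2 in the opposite one and in 12 not at all, beside 40.2% called among all tested genes.

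Slc22a23, an orphan carrier gene, was 11117, 11235, 9152 and 10045 in Scr and 8797, 8342, 7996 and 9562 in siCasp8. The groups overlapped, since Scr replicate 3 lay below siCasp8 replicate 4. The gene differed by -0.26 on the log2 scale (SE 0.0684, limma adjusted p = 0.00951, exact permutation p = 0.0571), a call that ended after upper quartile rescaling (0.0679) and with the depth covariate (0.369). Slc22a14, known from sperm, was 139, 98.3, 143 and 118 in Scr and 100, 144, 97.8 and 117 in siCasp8. These values overlapped (log2 fold change -0.12, 95% interval -0.47 to 0.23, limma adjusted p = 0.593). In GENCODE the Slc22a14 model overlaps Slc22a13, Slc22a13b-ps, Oxsr1 and Myd88, among others, on its strand. Slc22a17, which encodes a receptor of lipocalin-2, ranged from 0 to 7.45 in Scr and from 1.62 to 8.15 in siCasp8. Of the MATE exporters, Slc47a1 was at most 4.42 and Slc47a2 was listed at 0.

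**Figure D2:**
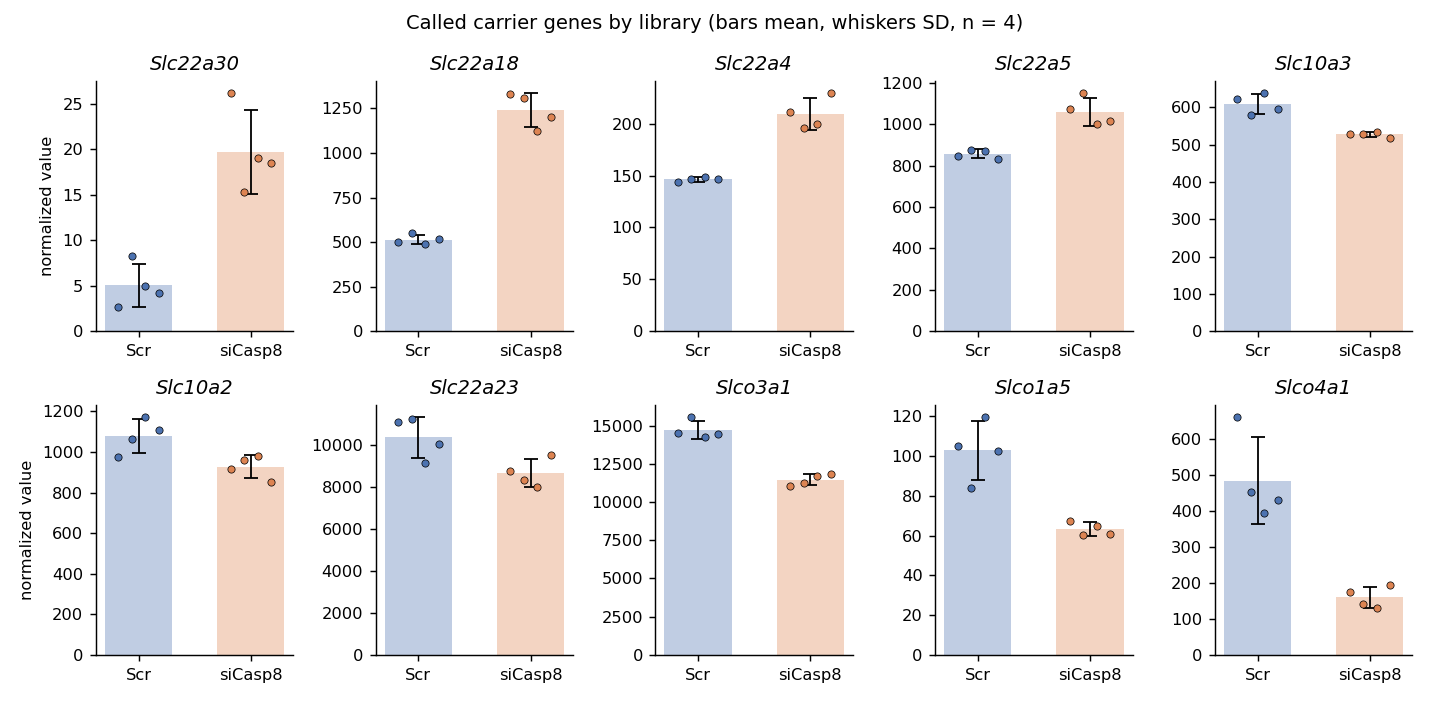
Normalized value (y axes, each from 0) of the 10 called carriers in the 4 Scr (blue) and 4 siCasp8 (orange) libraries, with bars for group means and whiskers for SD. The points of the groups are apart for 8 genes and overlap for Slc10a2 and Slc22a23.

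Organic anion transporting polypeptides, 15 genes of which 5 were tested, gave 3 falls, no rise and 2 genes not called. Slco4a1 encodes a carrier of thyroid hormones and prostaglandins found in many tissues. It was 664, 453, 394 and 431 in Scr and 176, 142, 130 and 194 in siCasp8. All siCasp8 libraries lay below all Scr libraries, and Scr replicate 1 was the highest by far. The mean fell to 33.0% of the Scr level, with a log2 fold change of -1.58 (SE 0.165, limma adjusted p = 1.12e-05), and without Scr replicate 1 the value was -1.42. The gene occupies bases 180456245 to 180474867 of chromosome 2 (plus strand).

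Slco3a1, which encodes a carrier of prostaglandins and thyroxine, had the highest level of the tested carriers per transcript length. It was 14543, 15584, 14283 and 14432 in Scr and 11052, 11266, 11677 and 11856 in siCasp8. The groups lay well apart, and Slco3a1 differed by -0.36 on the log2 scale (SE 0.0377, limma adjusted p = 1.13e-05). Slco2a1, which encodes the prostaglandin carrier that clears prostaglandins from the extracellular space, was 14299, 15318, 13552 and 14368 in Scr and 15470, 14963, 14644 and 15706 in siCasp8. Its groups overlapped, with a log2 fold change of 0.08 (95% interval -0.01 to 0.17, limma adjusted p = 0.139). It was called higher without Scr replicate 2 (0.11, adjusted p = 0.0354), after upper quartile rescaling (0.18, adjusted p = 0.00489) and under quantile normalization (0.16, adjusted p = 0.00779).

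Slco1a5 and Slco1a6 encode polypeptides of the rodent 1a subfamily, whose members carry bile salts and steroid conjugates. Slco1a5 was 105, 84.0, 120 and 103 in Scr and 67.6, 60.3, 65.0 and 60.7 in siCasp8. Every siCasp8 library lay below every Scr library, with a log2 difference of -0.68 (SE 0.143, limma adjusted p = 0.00228). Slco1a6 was 1422, 1679, 1860 and 1561 in Scr and 1357, 1448, 1593 and 1364 in siCasp8. These groups overlapped, and the log2 fold change of -0.17 (95% interval -0.35 to -0.00304) was not called (limma adjusted p = 0.0982). It was called lower without Scr replicate 1 (adjusted p = 0.0244) or siCasp8 replicate 3 (0.0482).

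The 1a genes lie with Slco1b2 and Slco1c1 in a run of 6 members over 799 kb of chromosome 6. Slco1a5 spans 142234227 to 142322981 and Slco1a6 spans 142085761 to 142208521, both on the minus strand. Iapp overlaps Slco1a5 on the opposite strand, and whether the counting used strand is not given in the sources used here. Of the 31-base words of Slco1a5 transcripts 9.58% occur in other genes, and 13.5% of those of Slco1a6. In the same run Slco1b2, the gene of the main hepatocyte polypeptide for uptake of bile salts and drugs, was listed at 0 in every library. Slco1a1 ranged from 3.54 to 9.68 in Scr and from 3.16 to 9.59 in siCasp8, and Slco1a4 from 1.59 to 4.35 and from 0 to 1.90. The blood-brain barrier gene Slco1c1 and the hepatic gene Slco2b1 had means under 1.

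Over all 51 members, 12 were listed at 0 in each library, 12 had a mean above 0 and under 1, and 10 a mean from 1 to 10. Of the 34 untested members, 8 had a value above 0 in siCasp8 only and 1 in Scr only, beside the greater estimated depth of the siCasp8 libraries. Between 23 and 29 members were above 0 in the Scr libraries and between 29 and 33 in siCasp8. Without any filter on low values, Slco5a1 was called higher as well, at a level of a few reads.

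Per kb of the longest annotated coding transcript, levels differed widely between the tested carriers. Slco3a1 led with 3206 ± 129 in Scr and 2498 ± 80.4 in siCasp8 (mean ± SD, n = 4). Slco2a1 followed with 2020 ± 102 and 2134 ± 67.5, then Slc22a23 with 1662 ± 157 and 1388 ± 108. No library of one of these 3 reached the range of the next. Slc22a18, with 331 ± 16.9 in Scr and 800 ± 61.8 in siCasp8, lay below Slco1a6 (579 ± 66.0) in Scr and above it (512 ± 39.1) in siCasp8.

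Slc10a7, Slc22a5, Slc10a3 and Slc10a2 came next, at Scr means from 260 to 312 per kb. Neighbours in this order overlapped over the 8 libraries. Slco4a1 went from 157 ± 39.1 to 51.7 ± 9.57 per kb and so from above Slc22a4 (64.6 ± 0.904 and 92.4 ± 6.76) to below it. Slc22a30 was the lowest, at 1.95 ± 0.911 and 7.60 ± 1.78. Slc22a13b had no match in the annotation and is left out of this order.

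**Figure D3:**
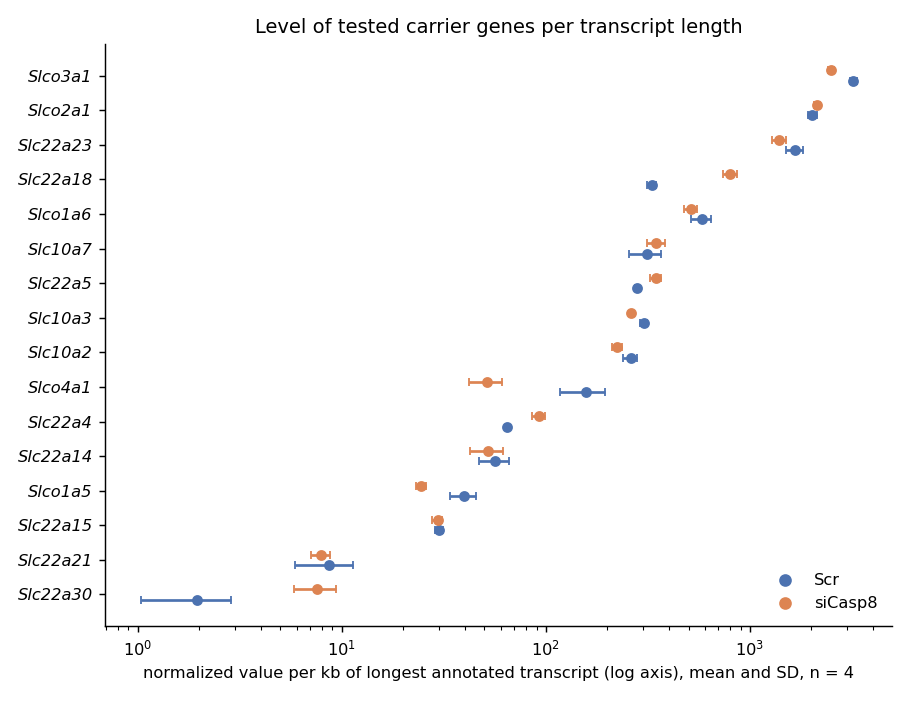
Normalized value per kb of the longest annotated coding transcript (x axis, log scale) for 16 tested carriers, as mean and SD of 4 Scr (blue) and 4 siCasp8 (orange) libraries. Slco3a1, Slco2a1 and Slc22a23 lie above all others in both groups, and Slc22a18 and Slco4a1 move furthest among genes above 50 per kb.

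Genes that work with the carriers were read from 7 lists. Bile acids are made from cholesterol by cytochrome P450 enzymes, and of 18 such synthesis and conjugation genes 11 were tested, with 8 higher, 2 lower and a median log2 fold change of 0.29. The mitochondrial sterol hydroxylase gene Cyp27a1 went from 646 ± 59.2 to 905 ± 33.6 (0.49, limma adjusted p = 0.000162), the racemase gene Amacr from 394 ± 16.4 to 547 ± 38.4 (0.47, 0.000211) and the sterol carrier gene Scp2 rose by 0.21. Ch25h, which encodes cholesterol 25-hydroxylase, fell by 1.37 and Hsd17b4 by 0.11. With the depth covariate 3 were higher and none lower. Cyp7a1, the gene of the rate-limiting enzyme of the classical pathway, was at 0.720 ± 1.44 and 0.415 ± 0.481.

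Of 16 genes listed for export of bile acids and drugs, most of them pump genes, 10 were tested. Of these, 5 were higher and 2 lower (median 0.38), or 6 and 1 after upper quartile rescaling. Abcc2, which encodes the canalicular pump of organic anion conjugates, went from 3047 ± 214 to 7170 ± 597 (1.23, limma adjusted p = 4.03e-08). The drug pump gene Abcb1b went from 370 ± 63.5 to 936 ± 86.4 (1.35), and Abcc3, which exports conjugates to blood, from 9793 ± 416 to 12529.7 ± 335 (0.36). Abcc1 fell by 0.25 and Abcg2 by 0.20, and with the depth covariate Abcg2 was not called (adjusted p = 0.088). Abcb11, the bile salt export pump gene, had a mean under 10 and was not tested (0.268 ± 0.535 in Scr and 8.96 ± 3.88 in siCasp8).

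Of 18 sensors and regulators of bile acid and drug transport, 16 were tested, with 8 higher, 1 lower and a median of 0.16. With the depth covariate 5 were higher and 1 lower. The liver factor gene Foxa3 went from 387 ± 10.4 to 635.5 ± 24.8 (0.71, limma adjusted p = 2.38e-06), the FGF co-receptor gene Klb from 1420 ± 115 to 2233 ± 73.2 (0.66) and Cebpa from 509 ± 32.2 to 673 ± 17.7 (0.40), while Foxa1 went from 1726 ± 34.98 to 1119 ± 85.9 (-0.63). Nr1h4, which encodes the bile acid receptor FXR, was 1117 ± 32.9 and 1069 ± 34.9 (-0.06, limma adjusted p = 0.326), and Hnf4a was 6535 ± 430 and 6944 ± 106 (0.09, 0.132).

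Genes of carnitine synthesis and use were higher in 4 of 8 tested of 10 listed and lower in 1 (median 0.16). With the depth covariate 4 were higher and none lower. Cpt1a, Crot and Crat, which encode acyltransferases of mitochondria and peroxisomes, rose by 0.39, 0.42 and 0.23. Cpt1c fell by 0.34, which was not called in the fit with depth (adjusted p = 0.369). Of 12 tested genes among 15 of thyroid hormone and prostaglandin handling, 5 were higher and 2 lower (median 0.23), or 7 and 1 after upper quartile rescaling. The depth covariate left 2 higher and 0 lower. The thyroxine carrier gene Ttr rose by 1.46, the aromatic amino acid and thyroid hormone carrier gene Slc16a10 by 0.71 and the reductase gene Ptgr1 by 0.26, while Slc7a5 fell by 0.35 and Ptgs1 by 0.27. The calls of Ptgr1 (adjusted p = 0.0846), Slc7a5 (0.0735) and Ptgs1 (0.382) were lost with that covariate.

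Urate genes were higher in 3 of 7 tested of 11 listed and lower in 2 (median 0.52), or 3 and 1 after upper quartile rescaling. Xdh, which encodes the oxidase that makes urate, went from 7586 ± 456 to 13636 ± 272 (0.85), the anion carrier gene Slc17a4 rose by 0.72 and the urate carrier gene Slc2a9 by 0.52. Slc17a1 fell by 1.77, and Abcg2 is also on this list. Of 12 listed symbols for scaffolds that hold carriers at the membrane, 9 were in the table. The others, Nherf1, Nherf2 and Nherf4, are second names of Slc9a3r1, Slc9a3r2 and Pdzd3, which were in the table. Of the 9 genes 8 were tested, with 2 lower and none higher (median -0.09), or 2 lower and 1 higher after upper quartile rescaling. The membrane-actin linker genes Msn and Ezr fell by 0.35 and 0.36. The plot of the 7 lists shows every tested gene with its call.

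**Figure D4:**
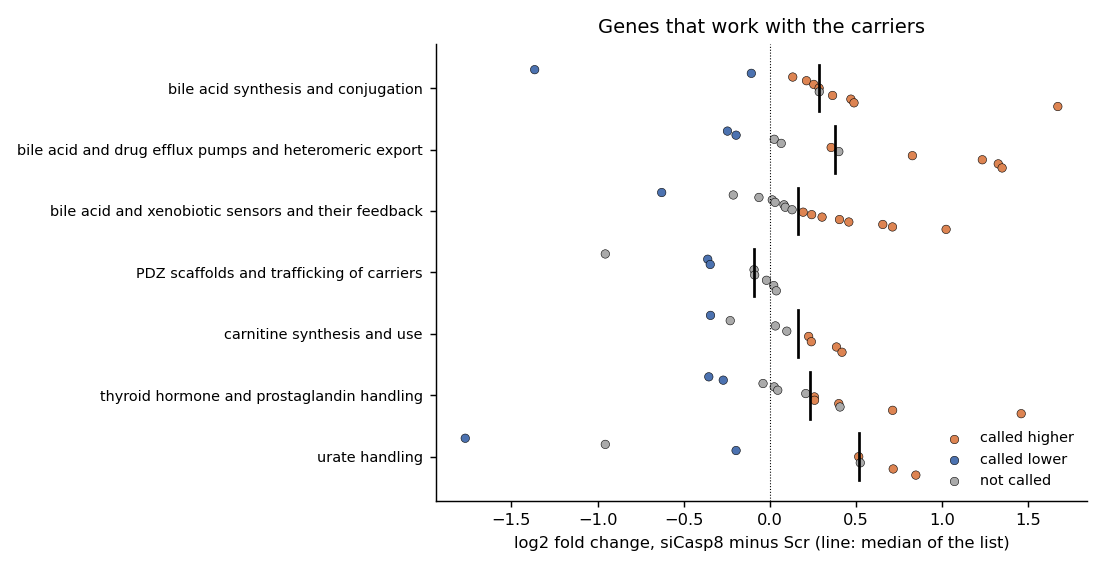
Log2 fold change (x axis, siCasp8 minus Scr) of each tested gene in the 7 lists of genes that work with the carriers (y axis), coloured by call, with a line at the median of each list. Medians run from -0.09 for scaffolds to 0.52 for urate handling, and lower calls are fewer than higher ones in every list but the scaffolds.

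**Figure D5:**
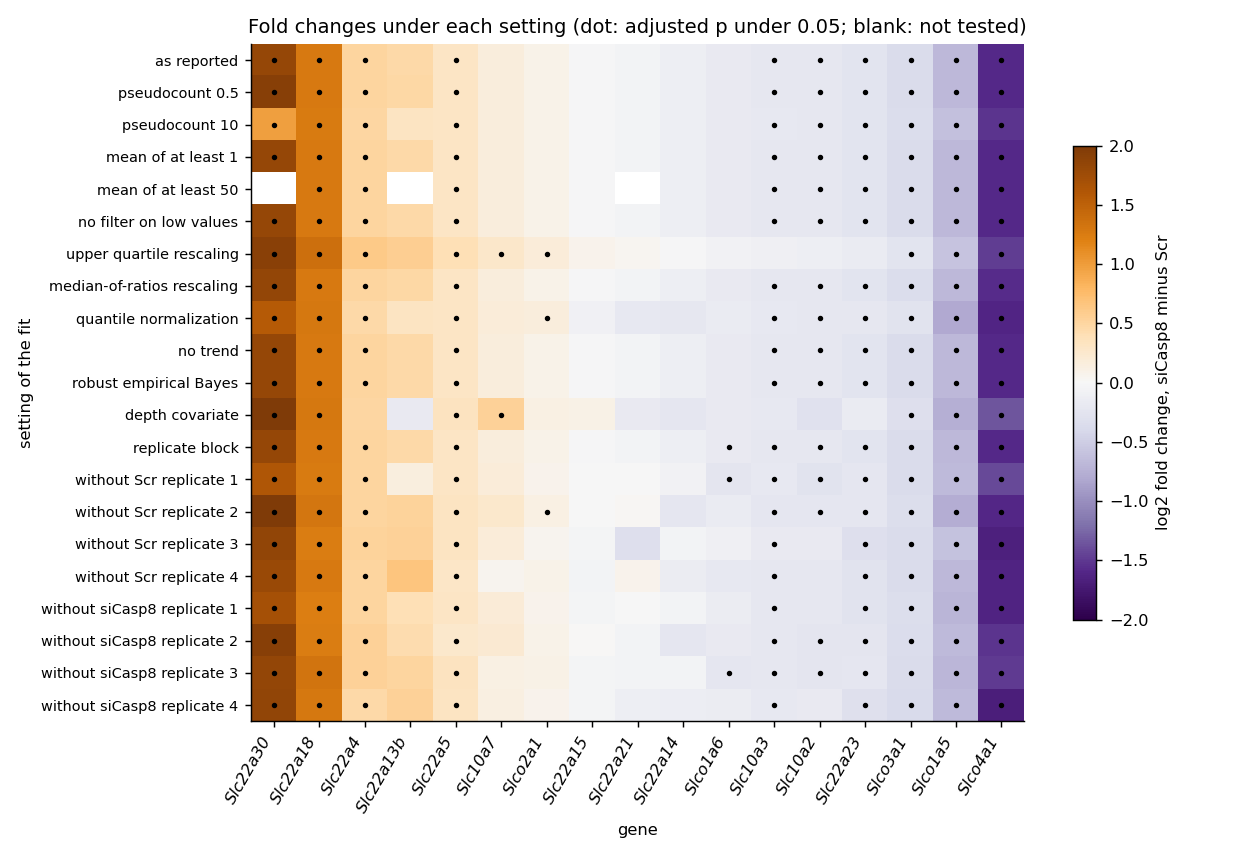
Log2 fold change (colour) of the 17 tested carriers (x axis) under the reported fit and the 20 alternatives (y axis), with a dot for adjusted p under 0.05 and white for genes not tested. The columns of Slc22a18, Slc22a5, Slco1a5, Slco3a1 and Slco4a1 carry a dot in every row, and that of Slc22a30 in every row where it was tested.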

How the data were processed

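The authors deposited 1 table of gene-level values, described by its name as estimates from kallisto after DESeq2 normalization. The deposited values are a normalized signal per gene symbol. Tools listed in the submitters' processing notes are DESeq2, sleuth, kallisto 0.44.0 and bcl2fastq 2.19, beside the builds GRCm38 and GRCh38, whose roles are not stated. Annotation and strand setting are not given in the sources used here. Only 63.0% to 75.0% of low values (up to 20.5 reads) lay within 0.1 of a whole number of reads, so no count model was used. A line without a symbol (0.0481% to 0.0631% of each library) was left out.

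Genes with a mean of at least 10 over the 8 libraries were tested in R 4.3.3 with limma 3.58.1 on log2(value + 1) (two-sided, prior variance fitted with a trend, no covariate), with Benjamini-Hochberg adjustment over 14154 genes. Fold changes on this scale understate those of low genes. The code was tested on simulated data. Every tested member is named. In each list, up to 3 called genes per direction with the smallest adjusted p are named, together with Cyp7a1, Cyp27a1, Abcb11, Abcc2, Nr1h4 and Hnf4a. Some items are not reported here. Members and lists were chosen with earlier results of these data known. The lists are bile acid synthesis, export pumps, sensors, scaffolds, carnitine, thyroid hormone and prostaglandin, and urate genes, with markers of hepatocytes, cholangiocytes, kidney tubule, fibroblasts, macrophages and endothelium. Positions, transcript lengths and 31-base words come from GENCODE M21 (GRCm38), which matched 49 of 51 members by symbol.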

Additional observations from a re-analysis of the deposited data

How the results depend on the processing

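The count of lower carriers, 6 as reported, was 3 after upper quartile rescaling and 3 with the depth covariate. Over all genes the higher and lower counts were 4471 and 1665 after that rescaling and 1209 and 1396 with the covariate. The cause was not tested. With 1 library left out, higher carriers numbered 4 to 5, lower carriers 5 to 7, carriers whose groups did not overlap 8 to 10, all higher genes 2262 to 2765 and all lower genes 2537 to 2978, and the log2 fold change of Casp8 ran from -1.47 to -1.39. Genes that were not called changed sign as follows. Slc22a13b was -0.18 with the depth covariate. Slc22a15 was 0.075 after upper quartile rescaling and 0.10 with the covariate, and with 1 library left out it ran from -0.055 to 0.015 (above 0 without siCasp8 replicate 2). Slc22a21 was 0.038 after the rescaling and ran from -0.33 to 0.066 (above 0 without Scr replicate 2, 0.027, or 4). With the replicate number as a block (replicate block), 4 carriers were higher and 7 lower, Slco1a6 being the added one (adjusted p = 0.0125). Deviations of same-numbered libraries correlated over genes at 0.0785, 0.0442, 0.169 and 0.0554. These values are small, but each library correlated best with its own number. Whether the numbers pair the cultures cannot be told from these values. A mean near 10 corresponds to few reads, and members under it cannot be compared.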
